A study of Mus musculus with 4 samples.

Results

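The genes described here make ribosomes or drive the genes that do: 4 MYC-family factors and 35 nucleolar proteins, RNA polymerase I subunits and rRNA processing factors. All 39 were found by symbol among the 18193 genes of the array, through 77 probe sets that carry only their symbol in the platform annotation, and each gene was read from the brightest of its probe sets, by the mean of all 4 arrays. The arrays measured messenger RNA of hair follicle stem cells (HFSCs), which renew the follicle through the hair cycle, sorted by flow cytometry from the skin of C57BL/6 mice at postnatal day 4. 2 arrays held RNA of miR-205 knockout (KO) cells and 2 held RNA of wild-type (WT) cells, numbered 1 and 2 in each group and called biological replicates. The labels name no miR-205 allele and do not say whether an array came from 1 animal or a pool. Their treatment text, the same for all 4 arrays, instead describes doxycycline-injected littermates with K14-rtTA/TRE-miR-203/K14-H2BGFP or TRE-miR-203/K14-H2BGFP, so it cannot be told from the labels whether any of those transgenes or doxycycline was present here. P-values below set a difference against the spread between these 4 samples, which limma moderates over all genes. As animal or pool is not stated, that spread need not be the one between animals.

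A ribosome starts in the nucleolus, where RNA polymerase I copies the ribosomal DNA into a long precursor. Small nucleolar ribonucleoproteins then modify that RNA, and successive sets of proteins fold and cut it into the RNAs of the small and large subunits. MYC, a transcription factor that binds the E-box as a pair with MAX, activates many of these genes, and in skin it is known for pushing epidermal stem cells out of quiescence and toward growth and differentiation. miR-205 is an abundant microRNA of stratified epithelia such as epidermis, and a microRNA lowers its targets by pairing its seed with their messenger RNA.

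The sequences behind the comparison are the microRNA that the KO label names and the E-box in the members' promoters, all credited to RefSeq (GRCm38.p6). Capitals in the 2 mature microRNAs mark the seed, bases 2 to 8.
mmu-miR-205-5p (chr1:193507503-193507524, minus strand): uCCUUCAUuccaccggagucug
mmu-miR-205-3p (chr1:193507467-193507488, minus strand): gAUUUCAGuggagugaagcuca

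Promoter windows of 300 bases, 250 before and 50 after the gene start, were in the RefSeq table for 32 members. The E-box CACGTG, which reads the same on both strands, was in a window of 6 of these 32 members (18.8%) and of 10.2% of the 14452 array genes with a window. The members were Max, Mybbp1a, Nop2, Pes1, Utp20 and Wdr43. The variant CACGCG, searched on both strands and free to overlap CACGTG, was in a window of 12 of the 32 members (37.5%) and of 16.2% of the array genes. Median GC content was 59.5% over 40 member windows and 58.3% over all windows, with a median of 22 and 16 CpG pairs per window. The shares are descriptions with no test, and a match is not shown to be a bound site. Pes1 and Max are printed because their E-box lies nearest to the start site of the 6, Nop2 because its E-box lies farthest from it, and Ncl because it had the smallest p between replicate numbers among the members, while its window holds neither motif. Capitals mark CACGTG or CACGCG on either strand.
Max (chr12:76962199-76962498, minus strand): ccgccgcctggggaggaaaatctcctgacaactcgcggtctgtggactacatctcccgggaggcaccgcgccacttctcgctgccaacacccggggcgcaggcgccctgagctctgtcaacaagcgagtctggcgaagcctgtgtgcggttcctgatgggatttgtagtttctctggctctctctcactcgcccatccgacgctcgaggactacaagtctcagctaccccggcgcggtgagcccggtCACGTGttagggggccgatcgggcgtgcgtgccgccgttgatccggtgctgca
Nop2 (chr6:125131633-125131932, plus strand): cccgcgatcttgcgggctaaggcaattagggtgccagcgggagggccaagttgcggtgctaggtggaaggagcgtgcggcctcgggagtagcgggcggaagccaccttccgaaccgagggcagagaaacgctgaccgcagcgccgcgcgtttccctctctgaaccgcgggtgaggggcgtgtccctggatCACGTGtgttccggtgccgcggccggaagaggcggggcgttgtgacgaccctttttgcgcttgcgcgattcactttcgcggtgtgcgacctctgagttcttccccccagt
Pes1 (chr11:3963725-3964024, plus strand): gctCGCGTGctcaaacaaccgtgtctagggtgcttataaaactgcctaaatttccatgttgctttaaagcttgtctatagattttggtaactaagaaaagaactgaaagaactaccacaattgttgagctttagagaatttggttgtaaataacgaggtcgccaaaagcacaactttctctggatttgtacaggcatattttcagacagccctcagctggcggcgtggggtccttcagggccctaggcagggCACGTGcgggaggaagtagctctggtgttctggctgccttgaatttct
Ncl (chr1:86359406-86359705, minus strand): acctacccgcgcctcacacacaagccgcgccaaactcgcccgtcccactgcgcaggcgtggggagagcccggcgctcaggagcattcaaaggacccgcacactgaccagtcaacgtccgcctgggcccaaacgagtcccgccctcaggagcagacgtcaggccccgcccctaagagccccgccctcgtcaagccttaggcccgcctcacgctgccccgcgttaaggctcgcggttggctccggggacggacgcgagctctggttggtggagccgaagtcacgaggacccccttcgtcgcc
The first letter of the E-box lay 3 bases before the first transcribed base in Max, 60 bases before it in Nop2 and 2 bases after it in Pes1. In the other E-box windows it lay after that base, by 17 bases in Wdr43, 37 in Utp20 and 40 in Mybbp1a.

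Across the whole array, 2 genes passed the threshold of 0.05 on the limma adjusted p for KO against WT (0.011% of 18193), and both mark sex. Xist, the non-coding RNA of X inactivation, was at 5.26 and 5.45 in KO and 13.28 and 13.19 in WT cells (limma adjusted p = 0.0377), and the Y-linked Eif2s3y was at 9.59 and 9.57 in KO and 3.05 and 2.86 in WT cells (limma adjusted p = 0.0377). By these RNAs both KO arrays read as male and both WT arrays as female, so genotype and sex cannot be told apart. That holds for every KO minus WT value below. Of the members only Dkc1 is X-linked, but the 38 on autosomes were compared between the same arrays. The miR-205 host transcript Mir205hg was at 6.52 and 6.13 in KO and 5.81 and 5.30 in WT cells, and since the deleted stretch is not given, it does not check the genotype. Of 16 stem cell markers, 15 had a mean of at least 6 on the log2 scale, a limit set here for dim probe sets, and so did all 11 measured basal keratinocyte markers, against 3 of 8 endothelial, 3 of 9 immune and 5 of 7 melanocyte markers. Dermal fibroblast markers reached it in 13 of 14, and their median was 9.60 and 8.96 in KO 1 and KO 2, and 10.67 and 8.75 in WT 1 and WT 2. Arrays of the same number resembled each other over all genes more (r = 0.9955 for number 1 and 0.9966 for number 2) than arrays of the same genotype (0.9947 for KO and 0.9917 for WT). These are correlations across genes, which are not replicates.

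No ribosome biogenesis or MYC gene passed the test between KO and WT cells. Of the 39 members 0 passed the limma adjusted p (0.011% of all genes did), and 0 had a limma unadjusted p under 0.05, against 1.88% of all genes (1.15% higher and 0.726% lower in KO). The smallest limma unadjusted p of a member was 0.0904 and every adjusted p was 1. The differences ran between -0.23 and 0.25 on the log2 scale, with a member median of -0.01 against 0.01 for all genes. By sign, 16 members were higher in KO (41%, against 53.2% of all genes) and 23 lower (59%, against 45.5%). Both KO arrays lay above both WT arrays in 2 members (5.13%, against 8.2% of all genes) and below them in 4 (10.3%, against 5.7%). The 2 were Nolc1 and Ebna1bp2, and the 4 were Nop58, Npm1, Bop1 and Wdr12. Within both numbers 8 members were higher in KO (20.5%, against 24% of all genes) and 7 were lower (17.9%, against 16.8%). The shares with separated groups or 1 sign in both numbers were near those of all genes.

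How firmly a difference can be bounded varied with the gene. The limma 95% interval of KO minus WT lay within 2-fold in either direction for 35 members, all except the 4 MYC factors, and within 1.5-fold for 30. The further 5 outside 1.5-fold were Polr1c, Gar1, Ncl, Wdr74 and Noc2l. The SE was 0.617 for Myc, the largest, and 0.0386 for Bop1, the smallest. This fit has no term for the replicate number, so the SEs and intervals hold the spread between numbers, and those of the MYC factors depend on that choice. With 2 arrays against 2 an exact permutation test of a single gene cannot give a two-sided p below 0.333, so none was run.

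**Figure D1:**
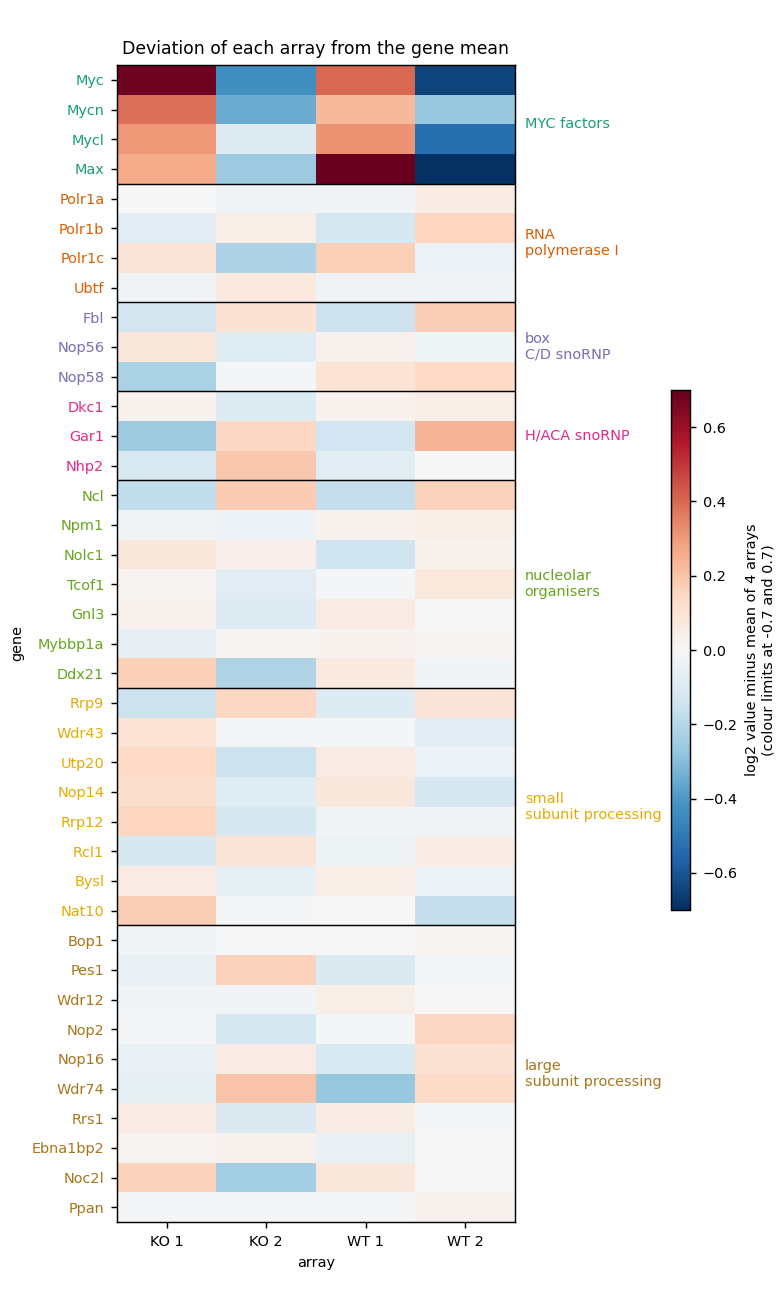
Deviation of each array's log2 value from the gene's mean over the 4 arrays (colour), with genes in rows grouped by role and arrays in columns, KO left of WT. The MYC factors are high on KO 1 and WT 1 and low on KO 2 and WT 2, while Ncl, Fbl and Gar1 show the opposite.

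The MYC factors were ordered by replicate number more than by genotype. Myc was at 10.48 and 9.38 in KO 1 and KO 2, and at 10.20 and 9.16 in WT 1 and WT 2. The number 1 array was about 1 unit above the number 2 array in both genotypes, and the KO array was above the WT array of the same number by 0.28 and 0.22. Over genotype the difference was 0.25 with an SE of 0.62 (limma unadjusted p = 0.712), and the groups overlapped. Over number it was 1.08 with an SE of 0.15, or 2.11-fold higher in number 1 (limma unadjusted p = 0.00444, adjusted p = 0.176).

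Mycn, the MYC paralogue used by many embryonic progenitors, was at 9.80 and 9.07 in KO 1 and KO 2, and at 9.65 and 9.15 in WT 1 and WT 2. It differed by 0.04 between genotypes (SE 0.36) and by 0.61 between numbers (SE 0.08, 1.53-fold). Both number 1 arrays again lay above both number 2 arrays. Its other probe sets did not show this, since 1 was at 7.24 on all 4 arrays and the other was at 7.21 on KO 1 and 7.29 on the other 3 arrays. Mycl, the third paralogue, was at 8.67 and 8.27 in KO 1 and KO 2, and at 8.68 and 7.84 in WT 1 and WT 2. It differed by 0.21 between genotypes (SE 0.38) and by 0.62 between numbers (SE 0.18, 1.54-fold). Its other probe sets were dim, with means of 4.84 and 4.68, and their number differences of 0.15 and -0.13 had opposite signs.

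Max, the obligate partner of the MYC proteins, was at 6.51 and 6.00 in KO 1 and KO 2, and at 6.94 and 5.56 in WT 1 and WT 2. KO was lower than WT by 0.43 in number 1 and higher by 0.44 in number 2, so the genotype means were equal to within 0.01 (difference 0.0023, SE 0.60). Between numbers Max differed by 0.95 (SE 0.25, 1.93-fold). It was the dimmest member, with a mean of 6.25, and RMA values near background tend to understate folds. Mycl and Max, 2 of the 39 members, had the array order WT 1, KO 1, KO 2, WT 2 from high to low. It was also that of the fibroblast marker medians. As 4.33% of all genes had this order, the share of the members was near that of the array. Whether fibroblast RNA had a part in the order was not tested. All 4 MYC factors were at least 1.5-fold apart between numbers, as were 2.78% of all genes and no other member. For Mycn and Mycl this held for the brightest probe set alone, since over the mean of their probe sets the number difference was 0.19 for Mycn and 0.21 for Mycl.

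**Figure D2:**
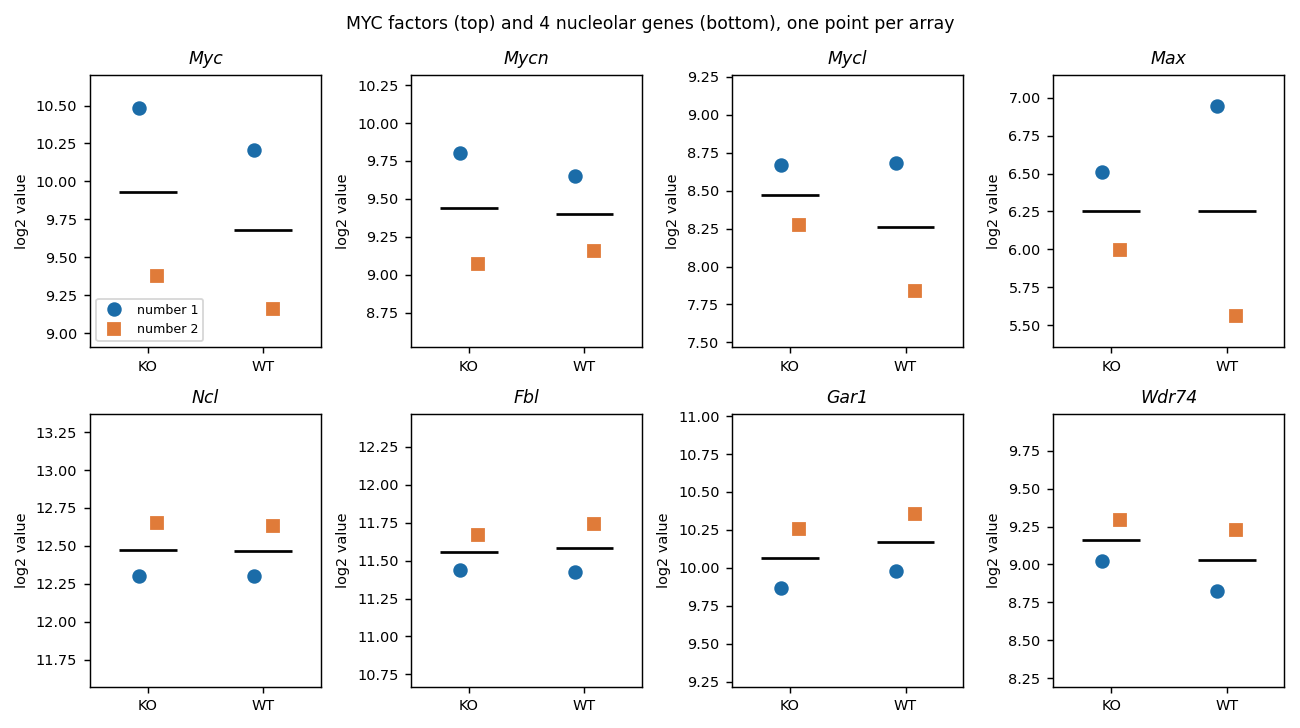
Log2 values of the MYC factors (top row) and of Ncl, Fbl, Gar1 and Wdr74 (bottom row), KO left of WT. Each point is 1 array, circles for number 1 and squares for number 2, horizontal lines are group means (n = 2), and every panel spans the same height. The KO and WT means differ by up to 0.25 (Myc), while circles lie above squares in the top row and below them in the bottom row.

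RNA polymerase I genes differed little between genotypes. The largest difference between genotypes was that of Polr1c, a subunit that RNA polymerases I and III share, at 9.79 and 9.49 in KO 1 and KO 2, and 9.87 and 9.66 in WT 1 and WT 2. It was 0.12 lower in KO (-0.12, SE 0.15), within both numbers, and the groups overlapped. Its second probe set was at 9.46 and 9.55 in KO and 9.55 and 9.73 in WT cells. The catalytic subunit gene Polr1a was at 7.98 and 7.96 in KO and 7.96 and 8.04 in WT cells (-0.03). A probe set of nearly the same mean was at 8.04 and 7.95 in KO and 7.89 and 7.95 in WT cells, a difference of 0.08. Another differed by 0.02, and the rest were dim and level on all 4 arrays. Polr1b, the second largest subunit, was at 7.58 and 7.69 in KO and 7.52 and 7.80 in WT cells, lower on the number 1 arrays. Ubtf, the factor that opens ribosomal DNA for the polymerase, was at 9.82 on 3 arrays and 9.91 on KO 2. On the brightest probe sets, genotype differences of the 4 genes ran between -0.12 and 0.05, and none had a limma unadjusted p under 0.452.

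Of the box C/D small nucleolar ribonucleoprotein, which methylates ribosomal RNA, Nop58 had the smallest p of all members in the fit without the replicate number, though Myc had the larger difference. It was at 11.09 and 11.30 in KO 1 and KO 2, and at 11.40 and 11.45 in WT 1 and WT 2. Both KO arrays lay below both WT arrays, by 0.32 in number 1 and 0.15 in number 2. The difference was -0.23 with an SE of 0.10 (limma unadjusted p = 0.0904, adjusted p = 1), and Nop58 had 1 probe set, so no second reading was at hand. Its partner Nop56 was at 11.02 and 10.86 in KO and 10.97 and 10.91 in WT cells. Fbl, the methyltransferase fibrillarin, was at 11.44 and 11.67 in KO and 11.42 and 11.74 in WT cells. Its genotype difference was -0.03 (SE 0.16) while its number difference was -0.27 (SE 0.04, limma unadjusted p = 0.00685), and its second probe set moved the same way, at 10.90 and 11.27 in KO and 10.86 and 11.34 in WT cells.

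The H/ACA particle converts uridine to pseudouridine. Dkc1, its pseudouridine synthase, was at 10.79 and 10.67 in KO and 10.79 and 10.81 in WT cells, a difference of -0.07 (SE 0.06). Gar1, a core protein of the particle, was at 9.87 and 10.26 in KO 1 and KO 2, and at 9.98 and 10.36 in WT 1 and WT 2. It was lower in KO by about 0.1 within each number (-0.11, SE 0.22), which is small beside its number difference of -0.38 (SE 0.07, limma unadjusted p = 0.00945). Nhp2, another core protein, was at 11.17 and 11.46 in KO and 11.19 and 11.27 in WT cells, a difference of 0.08 (SE 0.13). No H/ACA gene had a limma unadjusted p under 0.34 for genotype.

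Among the proteins that organise the nucleolus, Ncl (nucleolin, which binds the precursor RNA) had the smallest p between numbers among the members. It was at 12.30 and 12.65 in KO 1 and KO 2, and at 12.30 and 12.63 in WT 1 and WT 2. The arrays of 1 number agreed to within 0.02, and the numbers differed by -0.34 (SE 0.03, limma unadjusted p = 0.00124, adjusted p = 0.176). The genotype difference was 0.01 (SE 0.20). The 5 probe sets of Ncl did not move together between numbers, however: 4 were lower in number 1, the second brightest by 0.69, and 1 was higher by 0.17 (10.08 and 9.76 in KO, 9.94 and 9.92 in WT cells).

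Npm1, the chaperone nucleophosmin, was at 13.38 and 13.36 in KO and 13.43 and 13.44 in WT cells, with both KO arrays below both WT arrays by a small margin (-0.07, SE 0.04, limma unadjusted p = 0.192). Nolc1, a scaffold that links RNA polymerase I with small nucleolar particles, was at 9.91 and 9.87 in KO and 9.70 and 9.86 in WT cells (0.11, SE 0.08). Both KO arrays were above both WT arrays, but by only 0.01 in number 2, and its 2 other probe sets were each highest on WT 2. Gnl3 (nucleostemin, a GTPase of stem and cancer cells) was at 10.37 and 10.25 in KO and 10.40 and 10.35 in WT cells. Tcof1, whose product treacle supports ribosomal DNA transcription, was at 8.75 and 8.65 in KO and 8.72 and 8.80 in WT cells. The RNA helicase gene Ddx21 was at 9.94 and 9.57 in KO and 9.85 and 9.76 in WT cells, higher on both number 1 arrays. Mybbp1a, a MYB-binding nucleolar protein, differed by -0.04 (SE 0.05).

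The 8 factors of the small subunit had a median genotype difference of 0.02. Nat10, which acetylates cytidines of the small subunit RNA, was at 8.22 and 8.05 in KO 1 and KO 2, and at 8.05 and 7.89 in WT 1 and WT 2. It was higher in KO by 0.17 in number 1 and 0.16 in number 2, yet KO 2 was level with WT 1, and the difference of 0.16 (SE 0.10) had a limma unadjusted p of 0.21. Wdr43, of the complex that assembles on the newly made precursor, was at 9.19 and 9.09 in KO and 9.09 and 9.03 in WT cells (0.08, SE 0.06), while its second probe set was at 8.88 and 8.87 in KO and 9.01 and 8.87 in WT cells. Rrp12, needed for export of the pre-ribosome in yeast, was at 7.49 and 7.23 in KO and at 7.33 on both WT arrays, so that KO 1 and KO 2 lay on opposite sides of WT. Nop14, a part of the small subunit processome, was at 8.20 and 7.99 in KO and 8.15 and 7.96 in WT cells. Utp20, of the same processome, was at 9.59 and 9.30 in KO and 9.51 and 9.42 in WT cells. Both genes were higher in number 1, and their genotype groups overlapped. Rrp9, a protein of the U3 particle, ran the other way with 8.07 and 8.36 in KO and 8.13 and 8.31 in WT cells. The remaining pair, Rcl1 and the assembly factor gene Bysl, differed by -0.02 and -0.01 between genotypes.

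The 10 factors of the large subunit had a median of -0.02. Nop2, a methyltransferase of the large subunit RNA, was at 8.79 and 8.68 in KO and 8.79 and 8.95 in WT cells, a difference of -0.13 (SE 0.09) that was -0.27 in number 2 and 0.00 in number 1. Of the PES1, BOP1 and WDR12 proteins, which form the PeBoW complex, Pes1 was at 9.35 and 9.56 in KO and 9.30 and 9.39 in WT cells (0.11, SE 0.10), Bop1 differed by -0.02 (SE 0.04) and Wdr12 by -0.04 (SE 0.04). On these brightest probe sets the 3 differences did not have 1 sign. The other probe sets, all with means under 6, differed by -0.06 for Pes1, -0.20 for Bop1, and -0.31 and 0.10 for Wdr12. Wdr12 was at 8.33 on both KO arrays and at 8.39 and 8.35 in WT 1 and WT 2. Wdr74, which takes part in late nucleolar steps, was at 9.03 and 9.29 in KO and 8.83 and 9.23 in WT cells, 0.20 and 0.06 higher in KO within the numbers and 0.33 lower in number 1 than in number 2. Ebna1bp2, whose yeast counterpart is needed for large subunit RNA, was at 10.04 and 10.05 in KO and 9.97 and 10.02 in WT cells, both KO arrays being above by a margin of 0.02 (0.05, SE 0.04). Noc2l, whose yeast counterpart accompanies the large subunit precursor through the nucleus, was at 9.08 and 8.68 in KO and 9.00 and 8.91 in WT cells, with KO 1 highest and KO 2 lowest. Its second probe set did not have this order, at 7.28 and 7.59 in KO and 7.61 and 7.55 in WT cells, with KO 1 lowest. Nop16, a nucleolar protein of large subunit assembly, was at 9.20 and 9.31 in KO and 9.15 and 9.36 in WT cells, lower in number 1. Rrs1, which brings in the 5S particle, differed by -0.05, and Ppan, a large subunit assembly factor, by -0.02.

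**Figure D3:**
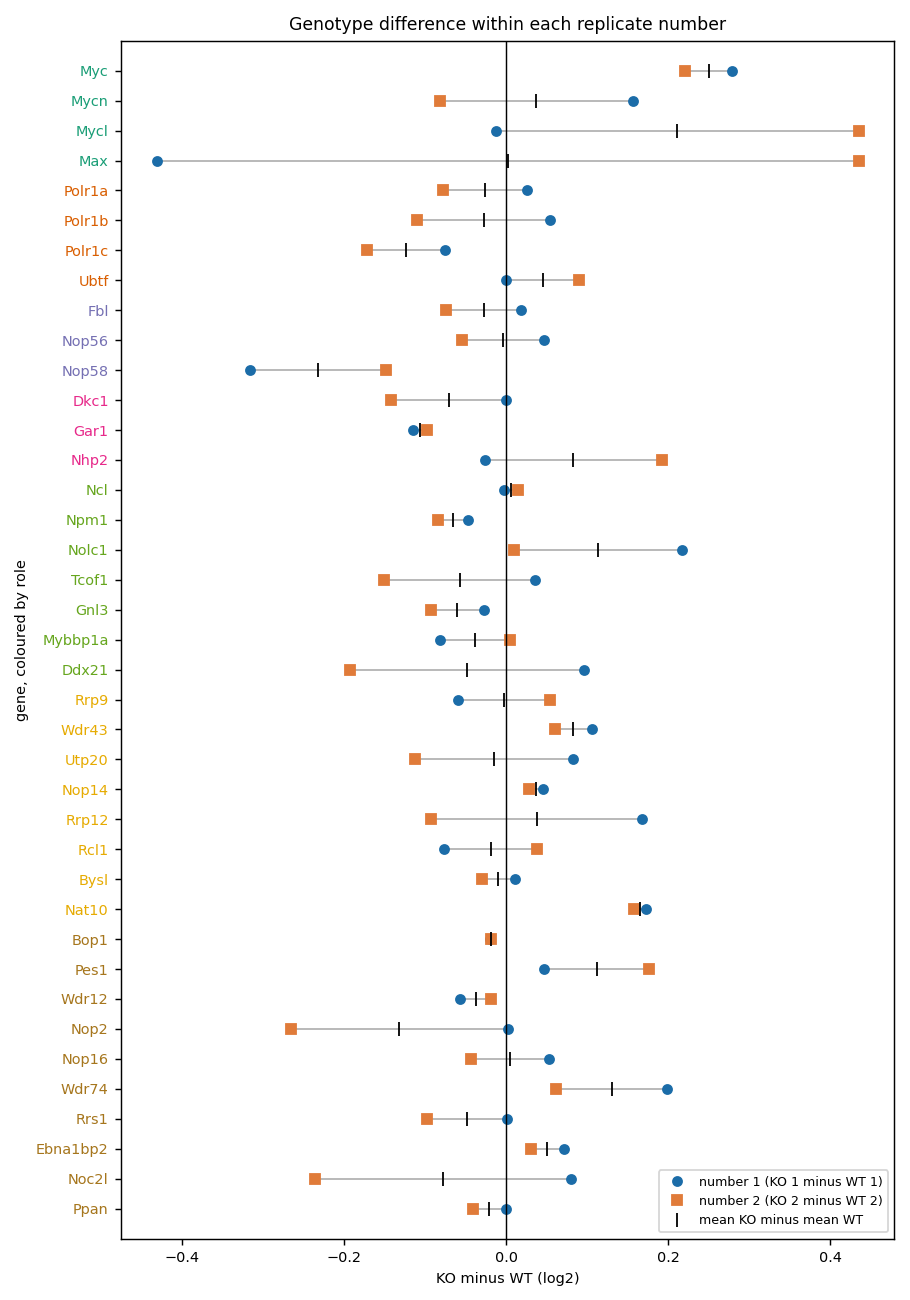
KO minus WT on the log2 scale for each of the 39 genes, within number 1 (circles), within number 2 (squares) and for the group means (bars), with gene names coloured by role. The symbols lie on both sides of 0, and 15 of the 39 genes have the same sign in both numbers.

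The replicate number was set against genotype because the labels give it and the arrays followed it. Of the 39 members, 15 (38.5%) had a limma unadjusted p under 0.05 between number 1 and number 2, against 17.7% of all genes, and 0 passed the adjusted threshold, as did 0% of all genes (limma, smallest adjusted p of a member 0.176). Those higher in number 1 were 7 (against 9.5% of all genes), Myc, Mycn, Mycl, Max, Polr1c, Nop14 and Bysl. Polr1c was higher on its brightest probe set only, and its second differed by -0.14. The 8 that were lower (against 8.2%) were Ncl, Fbl, Gar1, Rrp9, Nop16, Wdr74, Polr1b and Rcl1. The count of 15 became 13 with quantile normalization again, 12 with median centring and 13 with genes of a mean under 6 left out. All 39 members had a mean of at least 6, against 10929 of the 18193 genes. The shares of members and of all genes therefore compare genes of unlike brightness. Both number 1 arrays were above both number 2 arrays in 14 members, against 22% of all genes, and below them in 10, against 21.7%. The number difference was larger in size than the genotype difference in 27 members (69.2%, against 63.2% of all genes). The median number difference was 0.78 for the MYC factors and -0.02 for the 35 other members, of which 16 were higher and 19 lower in number 1.

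**Figure D4:**
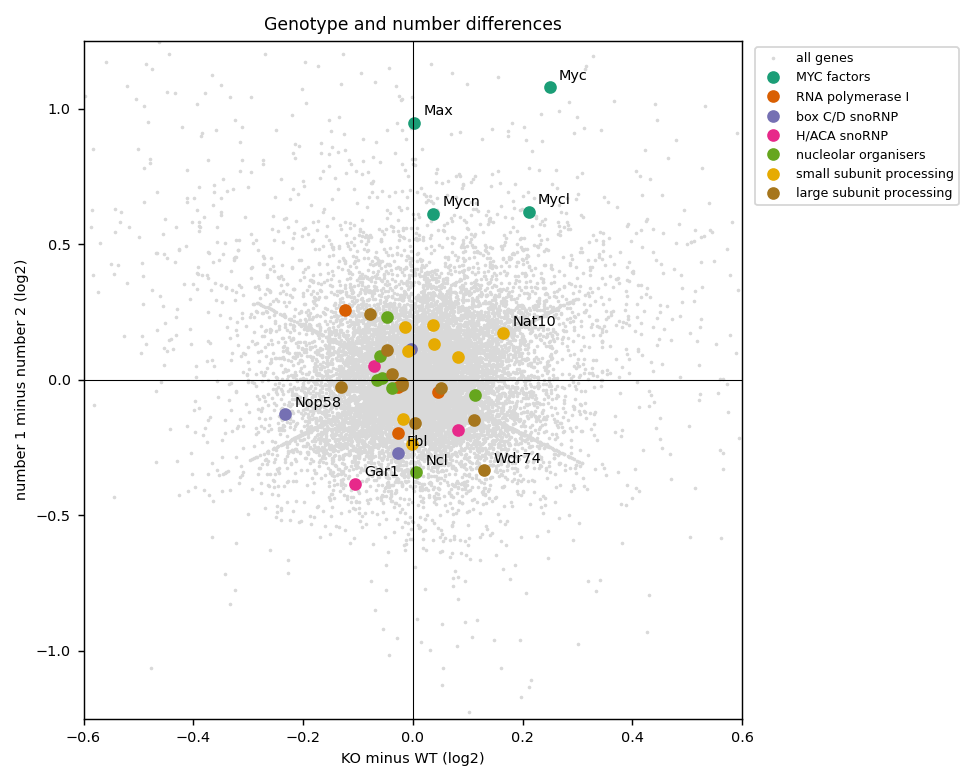
Difference between genotypes (KO minus WT, horizontal) against difference between numbers (number 1 minus number 2, vertical), both log2, for all genes in grey and the 39 members coloured by role; 169 other genes lie beyond the plotted range. The MYC factors stand at 0.61 to 1.08 on the vertical axis, and the remaining members within 0.39 of 0.

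Other measures differed by number as well. The control probe set at the 5′ end of 18S ribosomal RNA was at 11.51 in KO 1 and 11.59 in WT 1, and at 9.46 in KO 2 and 9.40 in WT 2. The other 18S probe sets had smaller gaps. The middle one was at 10.14 in KO 1 and 10.29 in WT 1, and at 8.61 in KO 2 and 8.53 in WT 2. The 3′ one was at 11.19 in KO 1 and 11.67 in WT 1, and at 10.64 in KO 2 and 10.68 in WT 2. For the beta-actin (Actb) controls, the 3′ probe set exceeded the 5′ probe set, a gap that grows with RNA breakage and short labelled copies, by 0.67 in KO 1 and 0.63 in WT 1, and 0.31 in KO 2 and 0.39 in WT 2. Of the 14 fibroblast markers, 13 were higher on both number 1 arrays than on both number 2 arrays, with a median difference of 1.53 and with Col1a2 at 13.10 and 11.86 in KO and 13.89 and 11.34 in WT cells. Melanocyte markers differed by number too, 5 of 7 with both number 1 arrays above both number 2 arrays (median difference 0.45), among them Dct (0.74) and Pmel (0.51). Sox10 went the other way, with both number 1 arrays below (-0.19), and in Mitf the numbers overlapped (-0.04). The part of these measures in the members' number differences was not tested. In bulk RNA, a change in the share of a cell type and a change in RNA per cell cannot be told apart.

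Probe sets of the same gene give a further reading of how solid a value is. 25 members had more than 1 probe set, and in 16 of these all probe sets had the same sign for KO minus WT. For number 1 minus number 2 that held in 11. Npm1 was level between numbers on its brighter probe set but not on its second, which was at 12.69 and 12.92 in KO 1 and KO 2, and at 12.80 and 13.08 in WT 1 and WT 2. On that probe set the groups overlapped, and the KO array was below the WT array within both numbers. 7 members had equal values on at least 2 arrays, against 43% of all genes, among them Ppan, at 8.52 on 3 arrays.

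The wider pathway was read from lists of other genes. Of 95 measured ribosome biogenesis factors outside the 39, 62 were higher and 32 lower in KO (against 53.2% and 45.5% of all genes), with a median of 0.03 against 0.01 for all genes. The split was 58 and 37 with quantile normalization again and 65 and 30 with median centring. None passed the adjusted threshold, and 1 had a limma unadjusted p under 0.05 (against 1.88% of all genes), so the list gave no more such genes than the array as a whole. The gene of smallest p, the small subunit factor Dcaf13, was at 9.74 and 9.78 in KO and 9.50 and 9.55 in WT cells (0.24, SE 0.04, limma unadjusted p = 0.0121, adjusted p = 1). Znhit6, of box C/D assembly, differed by 0.14, Znrd1, an RNA polymerase I subunit, by 0.14 and Nip7, of large subunit maturation, by -0.13. Without KO 2 the median of this list was 0.07, and without KO 1 it was 0.00.

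Of 10 genes of the MAX network, which holds the antagonists of MYC, 4 were higher and 5 lower in KO, 0 with a limma unadjusted p under 0.05 (median -0.01). Mnt, a repressor that pairs with MAX, differed by -0.12 (SE 0.06) and Mxd3, of the MAD repressors, by 0.10 (SE 0.06). Mxd1 differed by -0.37 (SE 0.29), with WT 2 at 8.07 and the other arrays at 7.27 to 7.44, and Mlx, a MAX-like partner, by 0.06. With each array left out the median was between -0.07 and 0.06. Of 20 MYC target genes outside the nucleolus, 8 were higher and 12 lower in KO with 0 at a limma unadjusted p under 0.05 (median -0.01, and -0.02 to 0.06 with each array left out). The spermidine synthase gene Srm differed by -0.08 (SE 0.05), the arginine methyltransferase gene Prmt5 by 0.20 (SE 0.13), Cad, of pyrimidine synthesis, by -0.04 and the chaperonin gene Hspe1 by -0.04.

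Of 44 measured ribosomal protein genes, 40 were lower and 4 higher in KO (against 45.5% and 53.2% of all genes). Their median was -0.04 against 0.01 for all genes. With quantile normalization of the table again, 26 were lower and 18 higher (median -0.02), and with median centring 34 were lower and 10 higher (median -0.03), so the split rests on the scaling. None passed the adjusted threshold. A limma unadjusted p under 0.05 was found for 3, all lower in KO (against 0.726% of all genes): Rps25 at 9.68 and 9.64 in KO and 10.04 and 9.94 in WT cells (-0.33, SE 0.06), Rpl37 (-0.25, SE 0.06) and Rpl14 (-0.21, SE 0.07). The probe sets of Rps25, Rpl37 and Rpl14 had means of 9.83, 10.92 and 8.30, below the array medians of the list at 13.83 to 13.88. Rps16, which is dim here at 3.46 to 3.86, differed by 0.26. Cell type markers were read by genotype as well, and none passed the adjusted threshold. Of the 11 basal keratinocyte markers, 10 were higher in KO (11 with median centring), against 53.2% of all genes, and the median was 0.13. In 6 of them both KO arrays lay above both WT arrays, against 8.2% of all genes. All 14 fibroblast markers were lower in KO over the group means (median -0.37), but the median was -1.03 in number 1 and 0.27 in number 2. Of the 8 endothelial markers 6 were lower in KO, against 45.5% of all genes (median -0.12). The 16 stem cell markers were split, 8 higher and 7 lower in KO (median 0.01). Of the 9 immune markers 7 were higher (median 0.08), and of the 7 melanocyte markers 5 were lower (median -0.08). In the endothelial and immune lists only 3 genes each had a mean of at least 6. The melanocyte marker Mitf was at 7.62 and 7.60 in KO and 8.02 and 8.13 in WT cells (-0.47, SE 0.06, limma unadjusted p = 0.00365). The part of these cell types in the values of the ribosomal proteins and of the members was not tested. Ribosomal protein genes have many near-identical processed copies, and probe sets cannot separate them, so these values are uncertain. A further 35 of the 79 listed genes were not matched to a probe set with 1 symbol.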

How the data were processed

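Messenger RNA of 4 samples was measured on 1-colour Affymetrix arrays with biotin-labelled RNA. The deposited table holds log2 values that the authors made with RMA, per the submitters' processing notes (version not given in the sources used here). RMA as usually run subtracts background, quantile-normalizes the probes and fits 1 value per probe set by median polish. Values ran between 2.51 and 14.56, with array medians of 5.85 to 5.87. Detection calls were not used here, so whether a dim value exceeds background is unknown, and the number of arrays limits precision.

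Symbols were those of the platform annotation at GEO, updated by gene identifier to the RefSeq table (34945 probe sets with 1 symbol, 932 with several, 9160 with none, 64 controls). Groups and numbers came from the sample titles. KO was compared with WT, and number 1 with number 2, with limma 3.58.1 in R 4.3.3 (lmFit, eBayes, two-sided, no covariate) over all 18193 genes, with Benjamini-Hochberg adjustment and a threshold of 0.05. Samples sharing a number are not said to share a litter or day, so the number was not used as a block in these fits. Tested on simulated data for KO against WT (10 simulations of 18193 genes, 200 changed), the fit recovered 30.9% of 2-fold and 61.1% of 4-fold changes, with 1.7 unchanged genes called per simulation.

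The members and gene lists were chosen with earlier results of these data known. All members are described, with values per array for the MYC factors and, in each other role, for up to 4 members of smallest genotype p and up to 3 of largest number difference. Up to 4 genes of smallest p are named in the lists of ribosome biogenesis factors, MAX network, MYC targets and ribosomal proteins. The cell type lists are given by counts and medians, and the genes named from them were not chosen by that rule. Alternatives were another normalization, a filter on dim genes (mean under 6), the mean of probe sets, every probe set, a replicate block, other eBayes settings and leaving out each array.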

Additional observations from a re-analysis of the deposited data

How the results depend on the processing

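No member passed the adjusted threshold in either comparison under any of the alternatives run. Members with an unadjusted p under 0.05 for KO against WT numbered 0 in all of them except the replicate block (1) and leave-one-out (0 to 3). With the replicate block, Myc differed by 0.25 with an SE of 0.0487, against 0.617 without it (limma unadjusted p = 0.024, adjusted p = 0.809). Deviations from the group means correlated at 0.557 between KO 1 and WT 1 over all genes and at 0.805 over the members, across genes, with 2 pairs only. The count over all genes, 2, became 0 with the replicate block, the mean of probe sets, every probe set and each array left out (0 to 0). Members whose KO arrays both exceeded the WT arrays numbered 1 with the mean of probe sets, and those below numbered 7 with it and 7 probe sets when every probe set was counted; leaving out an array, which leaves a group of 1, gave 7 to 14 and 9 to 17. For number 1 against number 2, members with an unadjusted p under 0.05 numbered 5 to 15 with each array left out, 5 without KO 1, 7 without KO 2, 8 without WT 1 and 15 without WT 2, the count with all arrays, and the cause was not tested. The median member difference between numbers, 0.0001, was -0.063 with quantile normalization again and 0.0471 in the KO arrays alone (that setting chosen after seeing the data).

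Of 330 alternative values of 33 members, 288 kept the sign of KO minus WT, and 310 of 330 kept that of number 1 minus number 2; the cause of the others was not tested. For KO minus WT, leaving out an array gave -0.30 to 0.80 for Myc, -0.33 to 0.40 for Mycn, -0.69 to 0.69 for Max, -0.17 to 0.11 for Polr1b, -0.19 to 0.13 for Fbl, -0.30 to 0.0905 for Gar1, -0.0928 to 0.17 for Rrp12, -0.0683 to 0.14 for Nop14, -0.15 to 0.14 for Rrp9, -0.28 to 0.0285 for Polr1c, -0.0846 to 0.0774 for Nop56, -0.0642 to 0.23 for Nhp2, -0.12 to 0.0008 for Gnl3, -0.17 to 0.18 for Ncl, -0.24 to 0.14 for Ddx21, -0.16 to 0.13 for Utp20, -0.0713 to 0.33 for Wdr74, -0.28 to 0.12 for Noc2l, -0.10 to 0.11 for Nop16, -0.21 to 0.63 for Mycl and -0.0653 to 0.0127 for Polr1a. Under quantile normalization again it was 0.0039 for Nop56 and -0.0081 for Nop16. Under median centring it was 0.0051 for Nop56 and 0.0066 for Rrp9. With the mean of probe sets it was -0.0013 for Mycn, 0.0131 for Polr1a, -0.0146 for Ncl and -0.0138 for Ebna1bp2. For number 1 minus number 2, leaving out an array gave -0.29 to 0.03 for Nop58, -0.069 to 0.0816 for Tcof1, -0.0186 to 0.12 for Dkc1, -0.0418 to 0.0419 for Npm1, -0.17 to 0.052 for Nolc1, -0.066 to 0.0051 for Ebna1bp2, -0.009 to 0.0484 for Wdr12, -0.0653 to 0.0127 for Polr1a and -0.16 to 0.10 for Nop2. Under quantile normalization again it was -0.0124 for Npm1, -0.0658 for Tcof1 and -0.0502 for Wdr12. With the mean of probe sets it was 0.0172 for Polr1a, -0.0676 for Nop56, -0.0194 for Dkc1, -0.13 for Npm1, -0.0623 for Nat10 and -0.034 for Wdr12.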
